A study of Mus musculus with 6 samples.

Results

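The genes described here encode the proteins of the cytosolic ribosome. They were taken as the protein-coding mouse genes, by GENCODE biotype and with pseudogenes left out, whose symbol is Rpl or Rps plus a number with an optional letter, together with Rpsa, Rplp0, Rplp1 and Rplp2. This rule gave 81 genes of the 54838 gene identifiers in the count files, 50 for the large subunit and 31 for the small subunit. Of these, 78 had enough read pairs to be tested, among 15998 tested genes.

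RNA was sequenced from intestinal stem cells of mice of the strain B6.129P2-Lgr5tm1(cre/ERT2)Cle/J, in which the Lgr5 locus drives eGFP and a tamoxifen-dependent Cre in crypt base cells. GFPhi cells from 4 pooled mice were sorted on each of 3 days, embedded in Matrigel at 20000 cells per 10 µL drop (about 200000 in all), and treated from 4 h later with INT-777 at 30 µM or with DMSO, the solvent control. Both groups carried the same allele and were kept in a crypt culture medium with JAG-1, a Notch ligand, at 1 µM and CHIR99021, a GSK3 inhibitor, at 3 µM. INT-777 is a bile acid derivative that activates the membrane bile acid receptor TGR5. Each group had 3 libraries, 1 from each day, numbered by day. The labels of the samples give a treatment of 12 h, whereas the design text gives 16 h. The age and sex of the mice are not given in the sources used here. Each library held 45682340 to 47905087 read pairs assigned to genes. RNA integrity numbers were 9.3, 9.6 and 8.7 for DMSO on days 1 to 3, and 9.2, 9.2 and 9.0 for INT-777 on the same days.

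A ribosome is built from ribosomal RNA and a fixed set of ribosomal proteins, each usually present in a single copy, so the genes of the set are transcribed at high levels in growing cells. Their messages carry a 5′-terminal run of pyrimidines, the TOP motif, through which the mTORC1 kinase and the RNA-binding protein LARP1 set their translation and stability. Crypt base stem cells divide steadily and depend on a high rate of protein synthesis. In bulk RNA, fewer cells of a type and less RNA per cell cannot be told apart.

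The sequences around the annotated starts show the TOP motif and its absence, and they are printed for members whose values are given below. RefSeq promoter entries on GRCm38.p6 matched 61 of the 81 members by symbol. Each line holds the 15 bases before the annotated start in lower case and the 15 bases from the start on in capitals, 5′ to 3′ on the gene's strand. The first 4 begin with C and at least 4 further pyrimidines, the next 3 do not, and the last 2 belong to members that had few or no read pairs.
Rps10, chr17:27635230-27635259, minus strand: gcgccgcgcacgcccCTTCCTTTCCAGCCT
Rps6, chr4:86857353-86857382, minus strand: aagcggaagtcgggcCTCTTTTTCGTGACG
Rpl38, chr11:114668565-114668594, plus strand: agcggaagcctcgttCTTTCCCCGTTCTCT
Rps15a, chr7:118116133-118116162, minus strand: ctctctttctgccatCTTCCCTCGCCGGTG
Rpl13a, chr7:45128731-45128760, minus strand: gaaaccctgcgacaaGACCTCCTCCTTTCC
Rpl27, chr11:101442230-101442259, plus strand: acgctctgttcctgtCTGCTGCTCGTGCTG
Rpl27a, chr7:109519180-109519209, plus strand: gacttcgtgagctccTCCCTTTTCCCTTTC
Rpl10l, chr12:66284387-66284416, minus strand: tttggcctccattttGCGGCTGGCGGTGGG
Rpl3l, chr17:24727811-24727840, plus strand: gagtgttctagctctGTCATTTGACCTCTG

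A C at the annotated start followed by at least 4 pyrimidines was found in 13 of the 61 matched members (21.3%), against 3.01% of all genes with a promoter entry. In Rpl13a and Rpl27a the annotated start lies a few bases before or inside a pyrimidine run, so the count depends on the exact base that was annotated. The letters CTCTTT or CTTTCC, searched on the gene's strand within 25 bases of the start, were in 26.2% of the members and 4.81% of all genes; these letters were chosen after the windows were seen. Other motifs were searched on both strands in the whole entries of 250 bases before to 50 after the start. CCGGAAG, the core bound by ETS-family factors, was in 41.0% of the members, 9.93% of all genes with an entry and 19.2% of the tested protein-coding genes. AAGATGG, the core of the YY1 motif, was in 14.8% of the members, 7.28% of all genes and 8.26% of the tested protein-coding genes. TATAA was in 27.9% of the members, 28.0% of all genes and 16.5% of the tested protein-coding genes, and GGGCGGG, an Sp1-type motif, in 44.3% against 27.9%, or 51.8% of the tested protein-coding genes. These matches describe letters, not bound sites.

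Together the 81 genes took 3.62, 3.46 and 3.59% of the assigned read pairs with DMSO on days 1 to 3, and 3.59, 3.84 and 4.00% with INT-777. On the scale of CPM, read pairs per 1000000 assigned pairs, with TMM library scaling, their summed level was 35877, 34449 and 35807 with DMSO and 36224, 38583 and 40177 with INT-777. On this scale all 3 treated sums lay above all 3 control sums, but the treated library of day 1 exceeded the highest control by little. As a share of assigned pairs, without TMM scaling, the treated library of day 1 lay below the control of day 1 (a change of −0.611%). The mean summed level went from 35378 ± 805 to 38328 ± 1989 CPM (SD, n = 3 each), a difference of 8.34%. Within days the difference in summed CPM was 0.968% on day 1, 12.0% on day 2 and 12.2% on day 3. In both subunits the difference was smallest on day 1: the large subunit sum differed by 1.12, 12.5 and 11.9%, and the small subunit sum by 0.732, 11.2 and 12.7%.

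**Figure D1:**
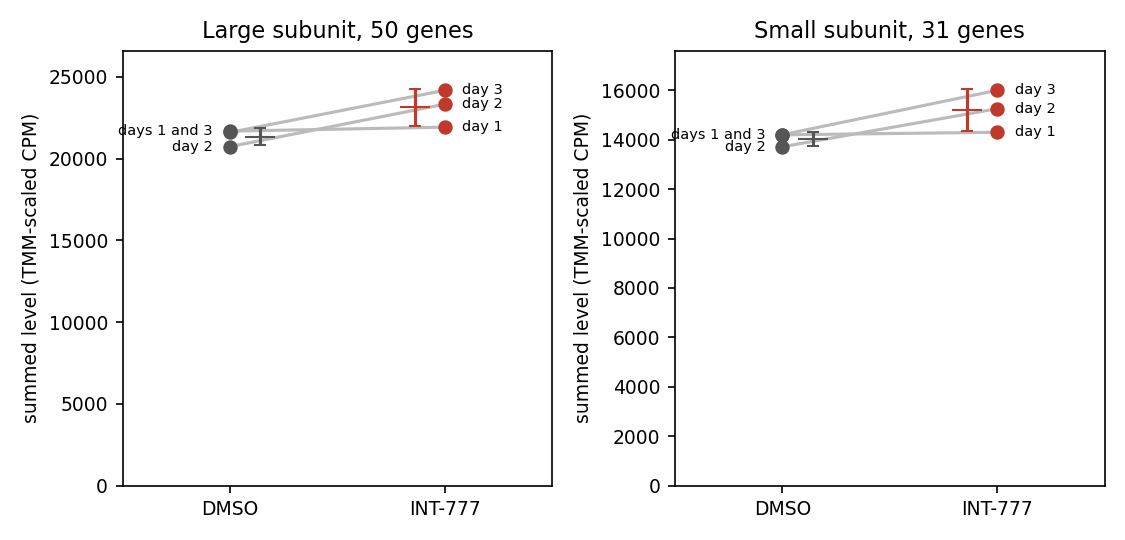
Summed level of the large subunit genes (left) and small subunit genes (right) in TMM-scaled CPM on a linear axis from 0, by treatment. Points are libraries, grey lines join libraries of the same day, and the crosses give the mean with its SD (n = 3). The day 1 line is nearly flat and the lines of days 2 and 3 climb.

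The level of each member was set per kilobase of exon, as RPKM averaged over the 6 libraries, so that genes could be compared. The length used was the union of all annotated exons of a gene, which can be longer than its mRNA. The ranks therefore depend on the annotation as well as on the read pairs. The tested members had a median of 204 RPKM, against 4.56 RPKM over all tested genes, and 74 of the 78 lay at or above 40 RPKM. The highest level was that of Rplp1, an acidic protein of the stalk that recruits translation factors, at 1686 RPKM. Rps15 followed at 940 RPKM, then Rpl4 at 784, Rps2 at 778, Rplp0 at 756 and Rpl8 at 701 RPKM. Rpl4, Rps2 and Rplp0 differ by less than the spread between libraries, so their order was not resolved. The place of Rps15 above Rps2 rests on exon unions of 630 and 1830 bases. Their mean levels with DMSO were 566 and 1370 CPM, and their transcripts with the longest coding sequence had 500 and 962 bases.

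At the low end, Rpl24 was at 0.620 RPKM and Rpl36al at 0.730 RPKM, followed by Rps10 at 4.51, Rpl13a at 21.6, Rps15a at 40.8 and Rpl30 at 41.8 RPKM. The first 4 and Rpl30 share exon sequence with another annotated gene. Rps15a does not, but its exon union of 6270 bases was the longest among the tested members, whose median was 1775.5 bases. The exon union of Rpl30 was 3020 bases. The annotated overlap covered 47.0% of the exon length of Rpl24 (with Gm28037), 24.5% of Rpl36al (with Gm49383), 28.7% of Rps10 (with the read-through gene RPS10-NUDT3 and Gm15420) and 35.4% of Rpl13a (with Gm45713, Snord33 and Mir5121). The genes named here as overlapping Rpl24, Rpl36al, Rps10 and Rpl13a were listed at 0 read pairs in every library. The deposited counting gives a pair that touches exons of more than 1 gene to neither of them, and such ambiguous pairs were 4.35 to 4.54% of all pairs. Overlap was not confined to members of low level. The largest overlaps were those of Rpl35 (66.2% of exon length, 161 RPKM) and Rpl23a (62.3%, 167 RPKM), and that of Rpl30 was 24.8%. The parts of overlap and of exon length in the low levels were not tested further. In all, 38 of the 81 members overlapped another gene, so the levels of these members count only part of their read pairs. Pairs that aligned to several places, as those from the many processed pseudogenes of the family can, were 5.96 to 6.31% and were likewise not counted.

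**Figure D2:**
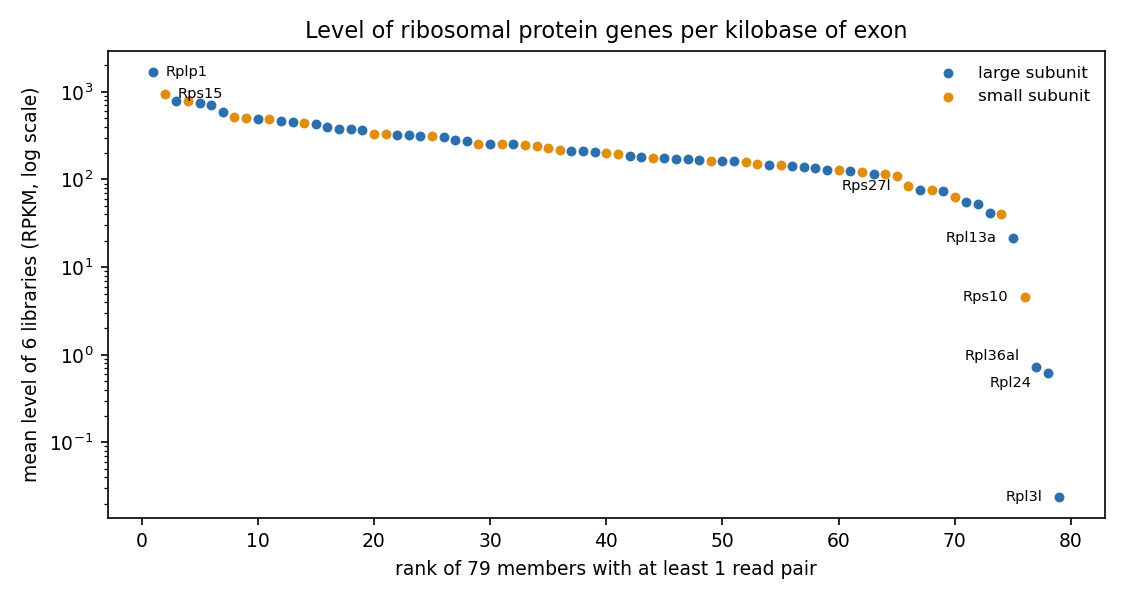
Mean level over the 6 libraries in RPKM (log axis) of the 79 members with at least 1 read pair, ranked from high to low and coloured by subunit. Most members form a shallow slope, and Rpl13a, Rps10, Rpl36al, Rpl24 and Rpl3l lie below the 74 members at or above 40 RPKM.

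Genes whose symbol ends in l encode variants of a core protein. Rps27l, a paralogue of Rps27, was at 84.1 RPKM, with 66.9, 64.7 and 68.6 CPM with DMSO and 60.3, 69.4 and 81.8 CPM with INT-777. Its treated library of day 1 lay below all controls, and those of days 2 and 3 lay above them. Rpl10l and Rpl39l, retrogene and paralogue forms known from testis, had 0 read pairs in all 6 libraries. Rpl3l, the form of striated muscle, had 3, 3 and 2 read pairs with DMSO and 2, 0 and 1 with INT-777. These 3 genes were the members that were not tested.

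The comparison of INT-777 with DMSO asks whether activation of TGR5 changes these transcripts in the stem cells. All 78 tested members had a positive log2 difference, with a median of 0.12 and a range of 0.05 to 0.27, where the median over all tested genes was 0.003. No member passed an adjusted p of 0.05 in edgeR's quasi-likelihood test without the day, in which 0.688% of all tested genes were called higher and 0.763% lower. At an unadjusted p under 0.05 there were 17 members, all higher, where 8.96% of all tested genes were higher at that p. DESeq2 called 5 members higher, among them Rpl13a, Rpl3, Rpl8 and Rpsa, and 2.31% of all tested genes. limma-voom called 0 members and 0.613% of all tested genes higher. P-values of the fits without the day measure the difference against the spread between 3 cultures from separate days and pools of mice. Those of the fits with the day as block, given below, measure it against the spread of the within-day differences.

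When the day was kept as a block, 26 members were called higher and 0 lower by edgeR at an adjusted p of 0.05. That is 33.3% of the tested members, where the same fit called 11.1% of all tested genes higher and 10.3% lower. These shares were not matched for level, as the tested members had a median of 204 RPKM and all tested genes 4.56 RPKM. The calls comprised 15 large subunit genes and 11 small subunit genes, with fitted log2 changes of 0.12 to 0.27. The count rested on the days: it was 57 without day 1, 1 (Rpl13a) without day 2 and 27 without day 3, where 10.4, 4.79 and 12.1% of all tested genes were called higher. Without day 2 the members' share was thus below that of all genes. The count was 16 with DESeq2's size factors and 13 in DESeq2 itself, with 10% and 6.95% of all tested genes called higher. With the counts of the first strand, which hold 50.1 to 50.6% of the pairs, it was 2 (Rpl13a and Rpl27), again a smaller share than the 6.51% of all genes. Of the 40 tested members with no exon overlap, 10 were called.

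**Figure D3:**
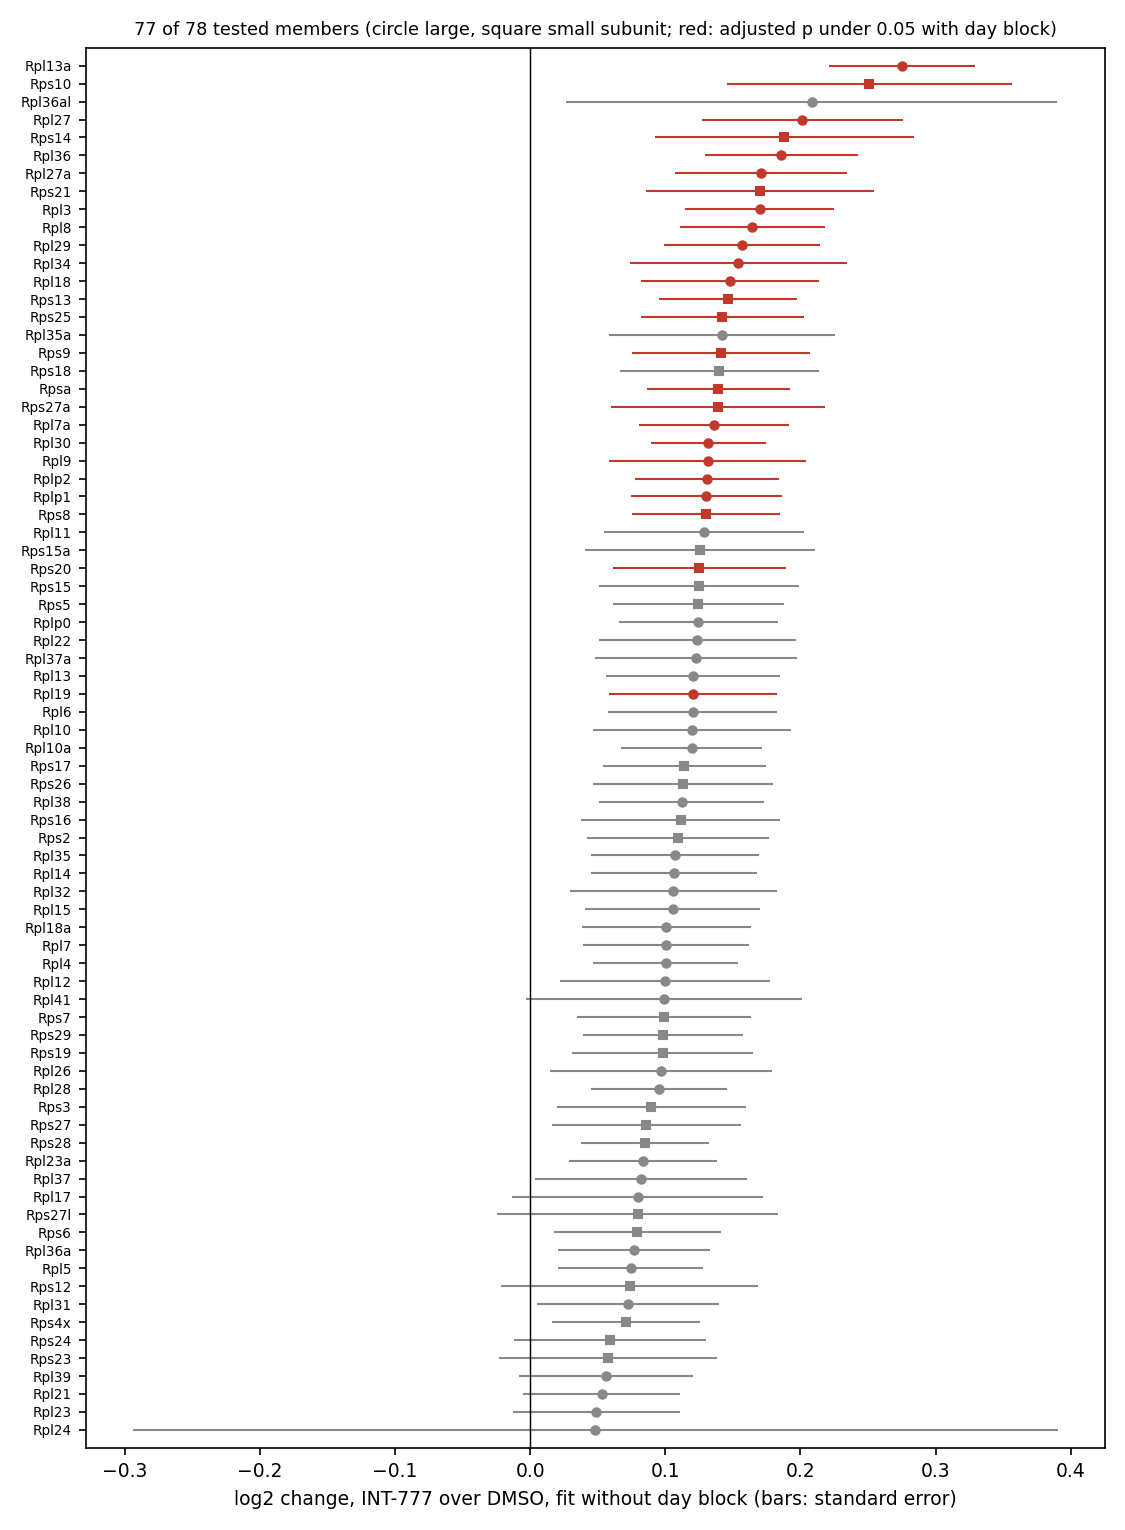
Log2 change with INT-777 over DMSO of 77 of the 78 tested members in the fit without the day, with its standard error, ordered by size. Circles are large subunit and squares small subunit genes, and red marks members with an adjusted p under 0.05 when the day is a block. Every point lies to the right of 0, and all but a few lie between 0.05 and 0.2.

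Rpl13a, a large subunit protein that also takes part in a translational silencing complex in inflammation, had the largest difference. Its level was 40.8, 42.5 and 40.8 CPM with DMSO and 50.5, 51.8 and 47.8 CPM with INT-777, and the groups did not overlap. Its log2 change was 0.27 ± 0.05 (SE), with an edgeR adjusted p of 0.0624 without the day and 0.00102 with it. It was higher with INT-777 on 3 of 3 days.

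Rps10, a protein of the small subunit head, was called higher with the day as block, close to the threshold (edgeR adjusted p = 0.0494). It was not called with the block in limma-voom, in DESeq2, with DESeq2's size factors or with first-strand counts. Nor was it called with the block when any 1 of the days was left out. It had 9.84, 10.4 and 8.32 CPM with DMSO and 12.0, 10.8 and 11.1 CPM with INT-777. The groups did not overlap, although the highest control and the lowest treated library were close. Its printed start begins with CTTCCTTTCC, a TOP run. Of the 15 members called with the block that had a promoter entry, 3 had such a start. Among all 58 tested members with an entry, 13 did.

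Rpl27, a large subunit protein with no exon overlap, was at 241, 235 and 250 CPM with DMSO and at 250, 287 and 298 CPM with INT-777. The treated library of day 1 was level with the control of day 3, and those of days 2 and 3 were higher. Its edgeR adjusted p was 0.243 without the day and 0.00746 with it. Rpl36, another large subunit protein, was at 165, 158 and 160 CPM and at 172, 185 and 192 CPM, with no overlap between groups and an edgeR adjusted p of 0.00858 with the block.

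Rpl27a had 374, 352 and 395 CPM with DMSO and 402, 426 and 433 CPM with INT-777. Rpl27a rose with the block at an edgeR adjusted p of 0.0108. Rpl36al is a near-identical copy of Rpl36a, and read pairs that align to both copies are not counted. It had a difference of similar size, a log2 value of 0.21 ± 0.18 (SE). This difference rested on 38 to 52 read pairs per library and did not pass either test (edgeR adjusted p = 0.614 and 0.554).

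The stalk proteins bind elongation factors. Rplp1 was at 797, 781 and 832 CPM with DMSO and at 856, 884 and 898 CPM with INT-777, and Rplp2 at 420, 412 and 420 CPM and at 441, 456 and 475 CPM. In both genes every treated library lay above every control library. Both rose with the day as block (edgeR adjusted p = 0.0342 and 0.0332). Rplp0, the base of the stalk, was at 1207, 1163 and 1230 CPM and at 1256, 1314 and 1355 CPM and narrowly missed the threshold (edgeR adjusted p = 0.0519 with the block).

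Rpsa, a small subunit protein also known as the laminin receptor, was even across the controls, at 1507, 1507 and 1518 CPM. With INT-777 it was at 1629, 1686 and 1676 CPM, above all controls, and it rose with the block (edgeR adjusted p = 0.0267). Rps27a, which is made as a fusion with ubiquitin, was at 245, 221 and 256 CPM and at 247, 261 and 288 CPM. Its groups overlapped, and it rose with the block (edgeR adjusted p = 0.0403). Rps14, a small subunit protein whose loss causes anaemia in 5q deletion syndrome, was at 331, 296 and 360 CPM and at 339, 372 and 412 CPM. It was higher with INT-777 on 3 of 3 days, and the edgeR adjusted p was 0.378 without the day and 0.0146 with it.

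Other members with known roles did not pass either fit. Rps6, the substrate of the S6 kinases, was at 519, 503 and 513 CPM with DMSO and at 508, 540 and 575 CPM with INT-777, with an edgeR adjusted p of 0.25 with the block. Rpl5 and Rpl11 form the 5S particle that can bind MDM2; they had log2 differences of 0.07 ± 0.05 and 0.13 ± 0.07 (SE) and adjusted p of 0.241 and 0.111 with the block in edgeR. Rps19, mutated in Diamond-Blackfan anaemia, had a log2 difference of 0.10 ± 0.07 (SE), with 290, 270 and 287 CPM against 280, 302 and 324 CPM.

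Rpl38, needed for translation of Hox messages in the embryo, had a log2 difference of 0.11 ± 0.06 (SE). Rpl10, which completes the large subunit, had 0.12 ± 0.07 (SE), and the X-linked Rps4x 0.07 ± 0.06 (SE). These 3 had adjusted p of 0.0931, 0.0664 and 0.267 with the block in edgeR. All 3 overlapped between groups.

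The members with the smallest differences were Rpl24, Rpl23, Rpl21, Rpl39, Rps23, Rps24, Rps4x and Rpl31, with log2 values of 0.05 to 0.07. Rpl24 rested on 17 to 40 read pairs per library, and its SE was 0.34. Rpl23, which like Rpl5 and Rpl11 can bind MDM2, was at 634, 624 and 633 CPM with DMSO and at 617, 645 and 695 CPM with INT-777. Rps23, a protein of the decoding centre, was at 304, 290 and 300 CPM and at 284, 298 and 348 CPM. In both, the treated library of day 1 was the lowest of all 6 and that of day 3 the highest.

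Within days, the median log2 ratio of INT-777 over DMSO (CPM plus 0.1) was 0.006 on day 1, 0.17 on day 2 and 0.17 on day 3. The ratio was positive for 40, 77 and 77 of the 78 members, and Rpl24 was the negative one on both later days. Over all tested genes the medians were 0.007, 0.008 and −0.003. Of the members, 39 were higher with INT-777 on all 3 days, where 26.8% of all tested genes were, and 0 were lower on all 3. The other pattern held 38 members, which were lower on day 1 and higher on days 2 and 3. In 25 members (32.1%) all treated libraries lay above all control libraries, against 13.6% of all tested genes. Among the control libraries, day 2 was the lowest for 62 of the 78 members, and day 3 was the highest of the treated libraries for 62.

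**Figure D4:**
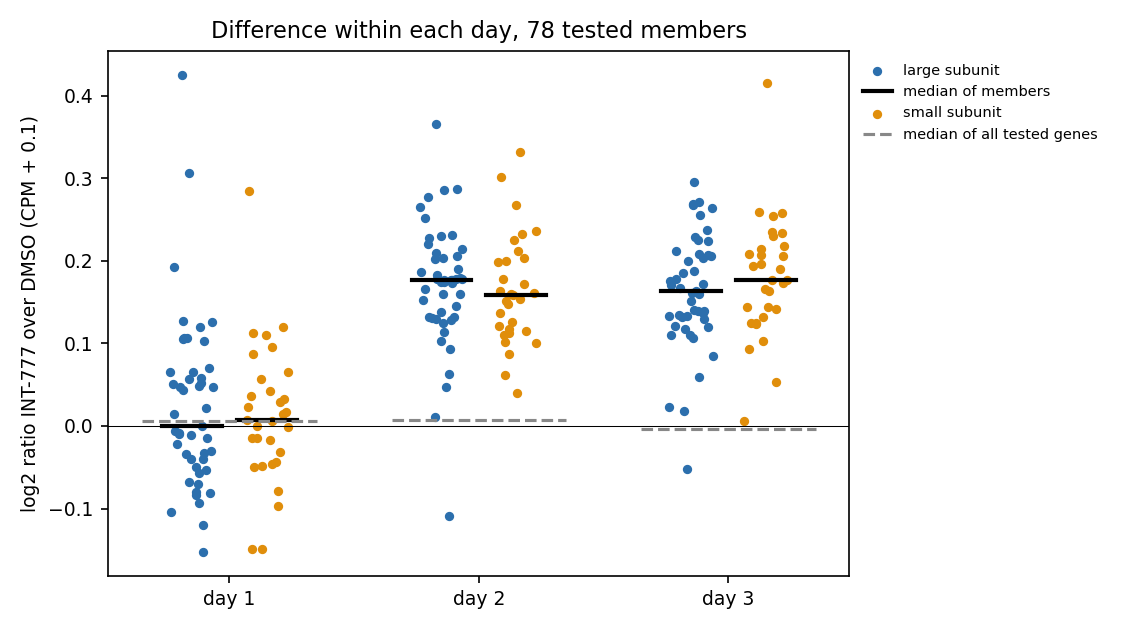
Log2 ratio of INT-777 over DMSO within each day for the 78 tested members, on CPM plus 0.1, with the large subunit in blue and the small subunit in orange. Black bars are subunit medians, and dashed lines are the medians of all 15998 tested genes. The members scatter around 0 on day 1 and lie almost all above it on days 2 and 3.

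Differences between the days themselves were tested across both treatments. Of the 78 members, 2 passed an adjusted p of 0.05 in edgeR's F-test, where 20.5% of all tested genes did. These were Rps14 (adjusted p = 0.0292) and Rps15a (adjusted p = 0.0342), with log2 values of 0.20 and 0.19 for day 3 over day 1. Rps15a was at 244, 226 and 264 CPM with DMSO and at 244, 266 and 292 CPM with INT-777, so that day 3 was the highest in both groups. The next smallest p-values belonged to Rps27a, Rps16, Rpl37 and Rpl17, with edgeR adjusted p of 0.0646 to 0.108 and log2 values of 0.14 to 0.20. The median of the members for day 3 over day 1 was 0.08, and 69 of 78 were positive. The count of members called moved between 0 and 31 as single libraries were left out: it was 15 without DMSO replicate 1, 0 without DMSO replicate 2, 31 without DMSO replicate 3 and 8 without INT-777 replicate 3. In these 4 fits 18.2, 12.3, 24.1 and 29.8% of all tested genes were called.

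Markers of other intestinal cells also moved with the day and the treatment. The 10 goblet cell markers summed to 5673, 5576 and 28269 CPM in the DMSO libraries and to 3007, 2905 and 12463 CPM in the INT-777 libraries. The 8 stem cell markers summed to 2460, 2424 and 2004 CPM and to 2103, 2081 and 1622 CPM, and all 8 were detected. Most of this sum was Slc12a2, at 1619, 1585 and 1252 CPM with DMSO and 1403, 1379 and 997 CPM with INT-777. The stem cell markers did not move together. With the block, 2 were called higher (Ascl2 and Cdca7) and 5 lower (Olfm4, Smoc2, Axin2, Lgr5 and Slc12a2), and Tnfrsf19 was not called. The 8 enteroendocrine markers summed to 633, 646 and 2772 CPM and to 596, 611 and 2174 CPM. The 8 Paneth cell markers summed to 3440 to 3961 CPM with DMSO and 2262 to 3626 CPM with INT-777, the 9 enterocyte markers to 1347 to 1644 and 1163 to 1255 CPM, and the 6 tuft cell markers to 25.8 to 35.5 and 29.7 to 40.9 CPM. The enterocyte markers did not move together: with the block, 3 were called lower (Anpep, Sis and Apoa1) and 2 higher (Alpi and Vil1). Anpep fell from 804, 831 and 549 CPM to 265, 260 and 165 CPM. The log2 changes with the block were −0.41 for Sis, −0.42 for Apoa1, 0.81 for Alpi and 0.21 for Vil1. Immune markers (10 genes) summed to at most 7.53 CPM and stromal markers (8 genes) to at most 4.10 CPM. No marker of these lists was at 0 in all libraries. The part of cell composition and of RNA integrity in the ribosomal protein differences was not tested; with the RNA integrity number as a covariate and no block, edgeR called 5 of the 78 members higher, among them Rpl13a, Rpl3, Rpl36 and Rpl8, and 7.21% of all tested genes, so the members' share was no larger than that of all genes.

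The members differed in length, base composition and overlap. Their coding sequences had a median of 454.5 bases, against 1401 over all tested genes with a coding length. Across the 78 members, Spearman's rho between GC content and the log2 change was 0.42, against 0.02 across 13332 tested genes. With the log2 ratios within days 1, 2 and 3, the rho of GC content was 0.34, 0.31 and 0.13 for the members. For all tested genes it was 0.11, 0.01 and −0.05. Coding length had a rho of 0.05 with the log2 change, and level (RPKM) −0.09. Across all 15995 tested genes with a length, the rho between level and log2 change was 0.23. On day 1, members with more exon overlap had higher log2 ratios (rho = 0.41): the median was 0.05 in the 38 members with overlap and −0.01 in the 40 tested members without. On days 2 and 3 that rho was −0.15 and −0.13. All of these values share the same 6 libraries and their depth, and they are descriptions across genes, which are not independent replicates.

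Ribosomal proteins outside the symbol rule gave similar values. Of 6 such genes, among them Rps3a1, Fau, Rack1, Rpl7l1 and Rpl22l1, edgeR called 0 without the day and 4 higher with it. Over all tested genes, the same fits called 0.688 and 11.1% higher. Rack1, the scaffold protein of the small subunit head, was at 979, 952 and 1057 CPM with DMSO and at 1060, 1107 and 1113 CPM with INT-777, and it rose with the block (adjusted p = 0.0376). Fau, Rpl22l1 and Rpl7l1 also rose with the block (edgeR adjusted p = 0.0277, 0.0388 and 0.0295). Rps3a1 had a log2 difference of 0.07 and did not pass.

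Related genes were set beside the members. Of 77 tested mitochondrial ribosomal proteins, edgeR called 1 higher without the day and 21 higher with it, and 0 lower, with a median log2 of 0.11. Over all tested genes, 0.688% were called higher without the day. With the day, 11.1% of all tested genes were called higher and 10.3% lower. The 1 called without the day was Mrps34, at 11.2, 11.1 and 11.3 CPM with DMSO and 15.2, 14.4 and 14.8 CPM with INT-777 (edgeR adjusted p = 0.0390). The summed level of the mitochondrial ribosomal proteins differed by 1.75, 9.02 and 17.0% on the 3 days. Of 32 ribosome biogenesis genes, which process ribosomal RNA and assemble the subunits, 0 were called without the day and 30 rose with it, with a median log2 of 0.23. In the fit without the day, their 2 smallest p-values belonged to Wdr12 (49.6, 50.5 and 44.3 CPM against 61.7, 63.3 and 57.9 CPM) and Nip7 (49.7, 49.6 and 41.8 CPM against 59.0, 62.9 and 55.4 CPM). Unlike the members, these genes had a median log2 ratio of 0.24 on day 1 already, with 0.20 and 0.29 on days 2 and 3; the difference between the lists was not tested.

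Of 19 translation factors and other genes with TOP messages, 8 rose with the block and 0 fell, with a median log2 of 0.11. Over all tested genes, 11.1% rose and 10.3% fell with the block. In the fit without the day, the smallest p-values belonged to Cct2, a chaperonin subunit, and Naca, which binds nascent chains (edgeR adjusted p = 0.264 and 0.270); with the block these were 0.0125 and 0.0314. Of 8 tested non-coding hosts of small nucleolar RNAs, 4 rose with the block (Snhg6, Gas5, Snhg12 and Snhg5), with a median log2 of 0.20. Of 23 genes of mTORC1 and TOP control, 2 rose (Lamtor3 and Akt1s1) and 4 fell (Deptor, Lamtor2, Pdcd4 and Ddit4) with the block, beside the 11.1% of all tested genes called higher and 10.3% called lower.

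**Figure D5:**
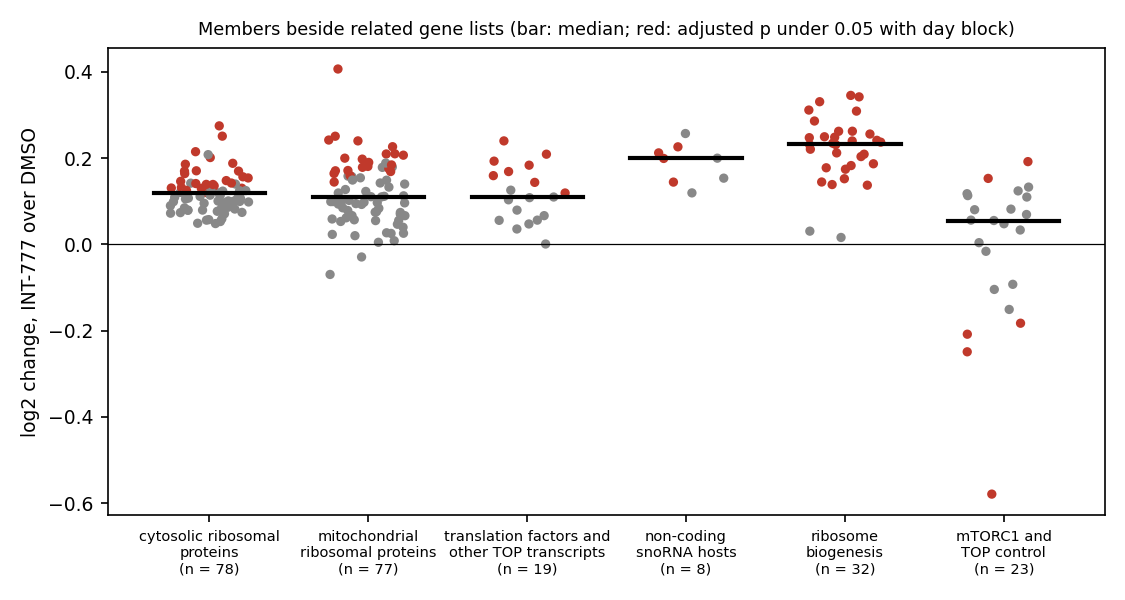
Log2 change with INT-777 over DMSO, in the fit without the day, of each tested gene in 6 lists, with the list median as a black bar and red points for an adjusted p under 0.05 with the day as block. The medians are 0.12 for the cytosolic and 0.11 for the mitochondrial ribosomal proteins and 0.23 for ribosome biogenesis; the mTORC1 and TOP control genes spread to both sides of 0.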

How the data were processed

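The authors deposited 1 table of whole-number counts per library, with read pairs per gene in the layout STAR writes, and the column that ignores strand was used. Per the submitters' processing notes, FastQC, STAR 2.73a and edgeR 3.24.3 were used with GRCm38 and mm10; no source used here names the annotation release. Symbols and exons came from GENCODE M21, which matched 54809 of 54838 identifiers; the other 29 did not match. Non-gene lines (unmapped, multimapping, no feature, ambiguous) stayed out of library sizes.

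Counts were tested with edgeR 4.0.16 (filterByExpr, TMM, robust quasi-likelihood test, Benjamini-Hochberg over 15998 genes), INT-777 against DMSO without the day, and with the day as the replicate block. DESeq2 1.42.0 and limma 3.58.1 were alternatives, and the code was tested on simulated data. The standard errors (SE) were derived from edgeR's test, as the absolute log2 change divided by the square root of its F statistic. RPKM used the union of annotated exons, which includes retained introns.

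The labels give the replicate number as the sorting day, so the numbers pair the libraries. Same-day libraries deviated together, with correlations of 0.33, 0.37 and 0.63 on days 1, 2 and 3; days 1 and 2 were also alike across numbers (0.34 and 0.36). edgeR's common coefficient of biological variation fell from 0.149 to 0.0480 when the day was added.

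Named members were those past 0.05, the 8 largest and 8 smallest differences, the 6 highest and 6 lowest levels, those with a final l or not tested, a set with known roles, the 6 of smallest p between days, and those outside the symbol rule; in the mitochondrial, biogenesis, TOP, small nucleolar RNA host and mTORC1 lists, mainly the 2 of smallest p. Members and lists were chosen with earlier results of these data known. Values of some genes that this rule names are not reported here.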

Additional observations from a re-analysis of the deposited data

Results flagged for a closer look

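The direction of the difference was not the same on every day. In 38 of the 78 tested ribosomal protein genes, the INT-777 library was below the DMSO library on day 1 and above it on days 2 and 3. Rpl41, Rps27l, Rps12 and Rpl17 had the lowest ratios on day 1. The same pattern was present in 1379 of the 15998 tested genes. The difference between the days was not tested, since each day holds 1 library per treatment.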

How the results depend on the processing

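The median log2 change of the members kept its direction under every setting run, from 0.07 (INT-777 replicate 3 left out) to 0.17 (day 1 left out), and the summed level stayed higher with INT-777 under its 3 alternatives, but the number of members called depended on the day. With the day as the replicate block, 26 members were called higher. Alternatives chosen after seeing the data, all with the replicate block, gave 26 with TMM scaling set without ribosomal protein genes, 31 in limma-voom, 16 with DESeq2's size factors, 13 in DESeq2, 10 among members without exonic overlap, 2 with first-strand counts, 57 without both libraries of day 1, 1 without those of day 2 and 27 without those of day 3. The share of all tested genes called higher was 11.1% in the main block fit, 11.2% with that TMM scaling and 11.1% in limma-voom. It was 10% with DESeq2's size factors, 6.95% in DESeq2 and 6.51% with first-strand counts. Without days 1, 2 and 3 it was 10.4, 4.79 and 12.1%. Of the 26 members, 25 were also called in limma-voom, 13 in DESeq2 and 22 without day 1. Without the block, DESeq2 called 5, the RNA integrity covariate 5, an adjusted p under 0.1 2, and leaving out both libraries of day 3 33. In these fits 2.31, 7.21, 1.46 and 13.9% of all tested genes were called higher. Without the block, leaving out both libraries of day 1 or of day 2 called 0 members, where 0 and 0.0123% of all tested genes were called higher. Leaving out single libraries called 0 each time. Between days, 9 members were called with no low-count filter, where 14.2% of all tested genes were. First-strand counts called 0 (14.1% of all tested genes), DESeq2 called 1 (16.2%) and an adjusted p under 0.01 called 0 (12.7%). Leaving out single libraries called 0 to 31 members, where 12.3 to 29.8% of all tested genes were called.

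Some small differences changed sign, and the cause was not tested. In all, 6 members were negative without both libraries of day 3 (7 with the block) and 7 without INT-777 replicate 3; values follow for those among the named genes. With first-strand counts, Rpl23 was at −0.00104 and Rpl24 at −0.105 (log2), and at −0.00553 and −0.0897 with the replicate block. Without both libraries of day 1, Rpl24 was at −0.0927, and at −0.0914 with the block. Without those of day 3, Rpl23 was at −0.00247, Rpl39 at −0.0368, Rps23 at −0.0352 and Rps27l at −0.0267. With the block, the same setting gave −0.000224 for Rpl17, −0.00286 for Rpl23, −0.0364 for Rpl39, −0.0354 for Rps23 and −0.0292 for Rps27l. As single libraries were left out, the log2 change ran from −0.224 to 0.350 for Rpl24, from −0.0483 to 0.182 for Rps27l, from −0.0419 to 0.119 for Rps23, from −0.0225 to 0.168 for Rpl17, from −0.00725 to 0.0897 for Rpl23 and from −0.00759 to 0.0890 for Rpl39. Depth limits Rpl24, Rpl36al and Rpl3l most.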
